A study of Mus musculus with 2 samples.

Results

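The genes of the mitochondrial ribosomal proteins were compared between 2 fractions of mouse hematopoietic stem cells (HSCs), which differ in SATB1, a nuclear protein that folds chromatin and is abundant in thymocytes. The genes were chosen by name: every deposited row whose symbol starts with Mrpl or Mrps directly followed by a digit, which gave 76 of the 23210 genes used. Bone marrow came from mice with a Tomato reporter of Satb1, and the sort kept LSK cells (without lineage markers, with Sca-1 and Kit) that had CD150 and lacked Flt3. The groups were Satb1-Tomato-positive (SATB1-positive) and Satb1-Tomato-negative (SATB1-negative) HSCs, with 1 library each. The labels used here give neither the strain nor the age of the mice, nor how many animals each library pooled. The values are FPKM, fragments per kilobase of transcript scaled to the library's mapped fragments. With 1 library per group a difference has no replicate check, and no p-value was computed.

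The mitochondrial ribosome translates the messenger RNAs encoded by mitochondrial DNA, which specify core subunits of the respiratory chain and of ATP synthase. Its RNAs come from mitochondrial DNA, while all of its proteins are encoded in the nucleus, made in the cytosol and imported. Some descend from ribosomal proteins of the bacterial ancestor of mitochondria and others were added later; in humans, loss of several of them causes combined deficiency of the respiratory chain. The protein names follow the subunit, Mrpl for large and Mrps for small, with exceptions: MRPS30 and MRPS18A sit in the large subunit, and Mrps36 encodes a component of the alpha-ketoglutarate dehydrogenase complex. The 76 genes were grouped accordingly into 49 of the large subunit, 26 of the small subunit, and Mrps36.

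The mitochondrial ribosomal protein genes were at nearly the same level in SATB1-positive and SATB1-negative HSCs. All 76 had at least 5 FPKM in both libraries, from 8.30 to 139.7 FPKM in the SATB1-positive and from 10.3 to 138 FPKM in the SATB1-negative library. Their summed FPKM was 3325 in the SATB1-positive and 3383 in the SATB1-negative library, which is 0.669% of the sum over all genes in SATB1-positive and 0.680% in SATB1-negative HSCs. The log2 ratio used throughout divides the value in SATB1-positive HSCs by that in SATB1-negative HSCs after adding a pseudocount of 1 FPKM to each. It had a median of -0.036 over the 76 genes and ran from -0.35 for Mrpl52 to 0.31 for Mrpl47. On this scale 0 of the 76 genes reached a 2-fold or a 1.5-fold difference. This rule of size asks for a higher value of 5 FPKM or above, and its background was the 9308 genes that met this. Of these, 1.31% were at least 2-fold higher and 0.688% at least 2-fold lower in SATB1-positive HSCs; for 1.5-fold the shares were 3.8% and 2.9%. In such bulk samples, fewer cells of a type and less RNA per cell cannot be told apart.

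Most ratios lay close to 1. Of the 76 genes, 69 (90.8%) had a plain FPKM ratio within 1.2-fold of equality, against 68.5% of the 9308 genes and 72.2% of the 6931 genes whose mean FPKM lay in the same range. The 7 exceptions were Mrpl47 and Mrps22, higher in SATB1-positive HSCs, and Mrpl17, Mrpl38, Mrpl41, Mrpl52 and Mrps18c, lower there. Related lists described below had similar or smaller shares within 1.2-fold. The share was 100% for the 7 other mitoribosomal proteins, 93.3% for mitochondrial translation factors and 84.0% for nuclear oxidative phosphorylation. It was 71.4% for mitochondrial aminoacyl-tRNA synthetases and 69.6% for cytosolic ribosomal proteins. The interquartile range of the log2 ratio ran from -0.12 to 0.041 over the 76 genes, and from -0.16 to 0.16 over the 9308 genes. In the 6931 genes of the same range it ran from -0.14 to 0.15. These spreads were set side by side without a test. Ratios below 0 were found in 46 of the 76 genes, 60.5%, and ratios above 0 in 30, 39.5%; each sign took 50% of the 9308 genes.

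**Figure D1:**
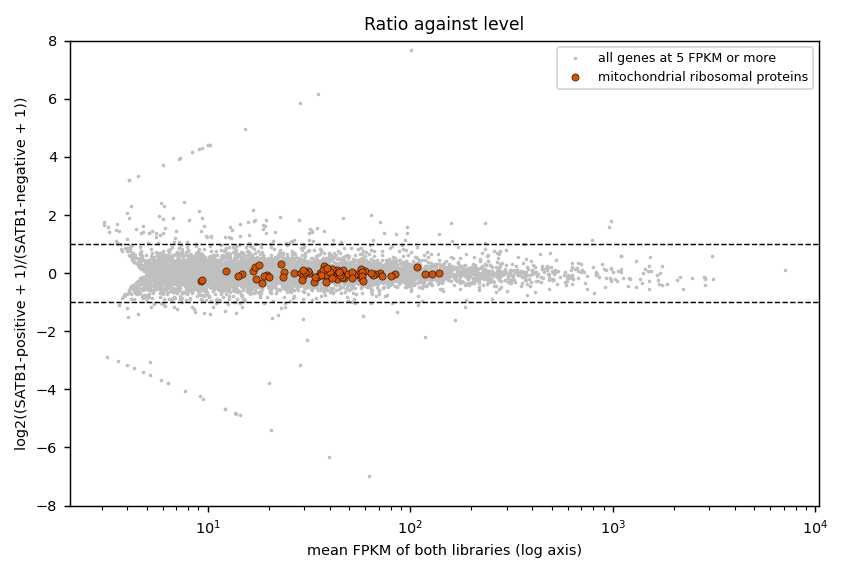
Each point is a gene that reached 5 FPKM in 1 or both libraries, placed by its mean FPKM over both libraries (log axis) and its log2 ratio of FPKM + 1, SATB1-positive over SATB1-negative; mitochondrial ribosomal protein genes are orange and dashed lines mark 2-fold. All 76 orange points lie between -0.35 and 0.31.

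The files hold no counts, so fragment numbers were estimated from the FPKM, the annotated transcript length and depths of about 26600000 fragments for the SATB1-positive and 34540000 for the SATB1-negative library, read from the steps of low values. The estimates for mitochondrial ribosomal protein genes ran from 94 to 6356 fragments in the SATB1-positive and from 157 to 8108 in the SATB1-negative library. Ratios are given with a 95% interval (exact, Clopper-Pearson) from how these fragments divide between the libraries. The interval covers counting error only and can be too narrow where PCR copies count as separate fragments. It can also be too narrow where the transcript is shorter in the authors' annotation. The half-width of this interval was 0.11 log2 units at the median and 0.38 at the widest, for Mrpl52. It included a ratio of 1 for 49 of the 76 genes. It lay above 1 for 10, 13.2% of the genes against 34.5% of 8440 genes with an estimate, and below 1 for 17, 22.4% against 32.3%. These shares depend on the number of fragments, which differed between the sets. Its median was 1092.5 in the SATB1-positive and 1470 in the SATB1-negative library over the 76 genes. Over genes at 5 FPKM or above it was 1444.5 in the SATB1-positive and 1836 in the SATB1-negative library.

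Satb1 itself was at 8.26 FPKM in the SATB1-positive and 2.37 FPKM in the SATB1-negative library, in the direction of the labels. All 9 HSC markers were detected, with a summed FPKM of 700.2 in the SATB1-positive and 899 in the SATB1-negative library, and 1 of them was higher in the SATB1-positive library. Lists of other markers differed in how far they stood apart between the libraries that gave the mitochondrial ribosomal protein values. The 8 T and NK cell markers summed to 59.5 FPKM in the SATB1-positive and 11.0 FPKM in the SATB1-negative library, and all 8 were higher in the SATB1-positive one. The 5 basophil and mast cell markers (of which Gata2 is also an HSC gene) summed to 684 FPKM in SATB1-positive and 306 FPKM in SATB1-negative HSCs with 4 higher. The 7 neutrophil markers summed to 3106 FPKM in the SATB1-positive and 1464 FPKM in the SATB1-negative library. Of these, 3 were higher in the SATB1-positive library (Mpo, Elane and Ctsg) and 4 lower (Camp, Ltf, S100a8 and Ngp). The 5 stromal markers summed to 92.4 FPKM in SATB1-positive and 37.2 FPKM in SATB1-negative HSCs with 4 higher, the 5 erythroid markers to 50.3 FPKM in the SATB1-positive and 52.5 FPKM in the SATB1-negative library with 2 higher, and the 5 B cell markers to 1.25 FPKM in SATB1-positive and 0.710 FPKM in SATB1-negative HSCs with 4 higher and Pax5 at 0 in the SATB1-positive library. Their part in the values of the mitochondrial ribosomal protein genes was not tested.

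The levels of the mitochondrial ribosomal protein genes spread over more than an order of magnitude, 16.8-fold between the highest and the lowest gene in the SATB1-positive and 13.4-fold in the SATB1-negative library. This order was nearly the same in both: Spearman's rho of the FPKM over the 76 genes, which share libraries and annotation, was 0.976. Pearson's r of log2 FPKM over the 76 genes was 0.985. Over all genes, on the log2(FPKM + 1) scale, it was 0.991, so a close match was not particular to the 76. The 10 highest genes were the same in both libraries, as were 9 of the 10 lowest. Most genes crowded the middle, with 55 of 76 between 20 and 70 FPKM in both libraries. Neighbours in the order mostly lay close: the counting intervals of 71 of 75 neighbouring pairs overlapped in the SATB1-positive and 67 of 75 in the SATB1-negative library. Overlap of separate intervals is not a test of the difference within a pair. FPKM depends on the transcript length in the authors' annotation, which is not given in the sources used here, so the order of levels holds only for those lengths.

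**Figure D2:**
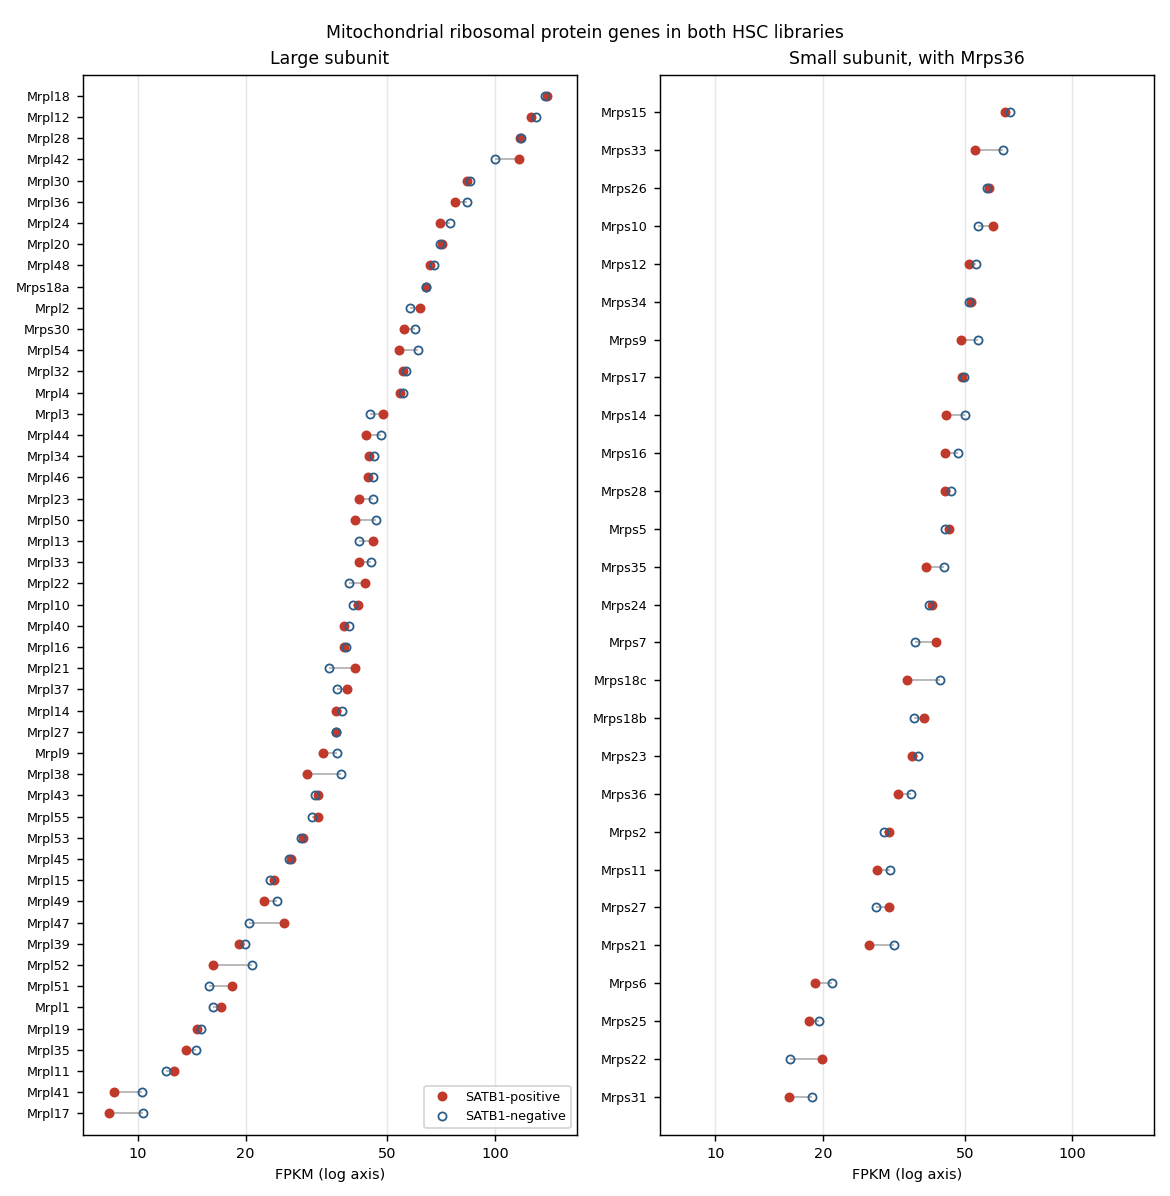
FPKM (log axis) of each gene in the SATB1-positive (filled) and SATB1-negative (open) library, by subunit and ordered by the mean of both. The 2 points of a gene lie close together along the whole range, from Mrpl17 and Mrpl41 near 10 FPKM to Mrpl18 near 139 FPKM.

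In the large subunit the 5 most abundant transcripts were Mrpl18, Mrpl12, Mrpl28, Mrpl42 and Mrpl30. Mrpl18 encodes a protein of the central protuberance, the crown of the large subunit, and was at 139.7 FPKM in SATB1-positive and 138 FPKM in SATB1-negative HSCs (ratio 1.01, interval 0.970 to 1.06). The gene (ENSMUSG00000057388.9) is on chromosome 17 from 12911349 to 12916345 of mm10, minus strand. Mrpl12 encodes the stalk protein that recruits translation factors and is present in several copies per ribosome; it was at 127 FPKM in the SATB1-positive and 130.3 FPKM in the SATB1-negative library. These values could not be told apart by counting (ratio 0.971, interval 0.931 to 1.01). Mrpl28 was at 117 FPKM in the SATB1-positive and 119 FPKM in the SATB1-negative library. Mrpl30 was at 83.7 FPKM in SATB1-positive and 85.0 FPKM in SATB1-negative HSCs. Mrpl42, added in the mitochondrial lineage, was the exception, at 117 FPKM in the SATB1-positive and 99.8 FPKM in the SATB1-negative library (ratio 1.17, interval 1.09 to 1.26).

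In the small subunit the 5 most abundant were Mrps15, Mrps33, Mrps26, Mrps10 and Mrps12, all between 51.4 and 66.8 FPKM. Mrps15 was at 64.6 FPKM in SATB1-positive and 66.8 FPKM in SATB1-negative HSCs, and Mrps26 at 58.6 FPKM in SATB1-positive and 57.6 FPKM in SATB1-negative HSCs. Mrps12 encodes the protein of the decoding centre, the site where bacterial resistance to streptomycin arises, and was at 51.4 FPKM in the SATB1-positive and 53.8 FPKM in the SATB1-negative library. For these 3 genes the counting interval of the ratio included 1. The large subunit had 2.18 times the summed FPKM of the small subunit in the SATB1-positive and 2.13 times in the SATB1-negative library. The median gene of the large subunit was at 40.6 FPKM in SATB1-positive and 39.1 FPKM in SATB1-negative HSCs. That of the small subunit was at 41.0 FPKM in the SATB1-positive and 43.1 FPKM in the SATB1-negative library.

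The subunits had medians close to 0. The median log2 ratio was -0.023 over the 49 genes of the large subunit, with 20 above 0, and -0.054 over the 26 of the small subunit, with 10 above 0. Genes of proteins with a bacterial homolog had a median of -0.022 (46 genes, 18 above 0), and those of mitochondria-specific proteins -0.047 (29 genes, 12 above 0). All of these lie within 0.1 of the median of -0.00017 over the 9308 genes. Mrps36 was at 32.5 FPKM in the SATB1-positive and 35.3 FPKM in the SATB1-negative library.

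The 8 highest ratios came from both subunits. Mrpl47, the counterpart of bacterial L29 at the rim of the exit tunnel, was at 25.6 FPKM in SATB1-positive and 20.4 FPKM in SATB1-negative HSCs, a ratio of 1.25 (interval 1.18 to 1.33). Its gene (ENSMUSG00000037531.8) is on chromosome 3 from 32725397 to 32737605, minus strand. Of its 50-base words, 16.9% also occur in transcripts of other genes, read on either strand. Mrps22, a mitochondria-specific protein of the small subunit whose loss in humans impairs several respiratory complexes, was at 19.9 FPKM in the SATB1-positive and 16.2 FPKM in the SATB1-negative library (1.23, 1.09 to 1.39). Mrpl21 was at 40.6 FPKM in SATB1-positive and 34.2 FPKM in SATB1-negative HSCs (1.19, 1.06 to 1.32). Mrpl51 was at 18.4 FPKM in the SATB1-positive and 15.8 FPKM in the SATB1-negative library (1.16, 1.09 to 1.24). Mrps7, a protein of the small subunit's head, was at 41.5 FPKM in SATB1-positive and 36.3 FPKM in SATB1-negative HSCs (1.14, 1.07 to 1.21). Mrps10, also of the head, was at 60.0 FPKM in SATB1-positive and 54.4 FPKM in SATB1-negative HSCs (1.10, 1.02 to 1.19), and Mrpl22, which lines the exit tunnel, at 43.4 FPKM in the SATB1-positive and 38.9 FPKM in the SATB1-negative library (1.11, 0.997 to 1.24). Mrpl42, described above, completes the 8.

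The 8 lowest ratios also came from both subunits. Mrpl52, mitochondria-specific, was at 16.2 FPKM in SATB1-positive and 20.9 FPKM in SATB1-negative HSCs, a ratio of 0.775 whose interval of 0.596 to 1.01 included 1, at about 94 fragments in the SATB1-positive and 157 in the SATB1-negative library. Its gene (ENSMUSG00000010406.12) is on chromosome 14 from 54426909 to 54429756, plus strand. Mrpl38, of the central protuberance, was at 29.8 FPKM in the SATB1-positive and 37.0 FPKM in the SATB1-negative library (0.805, 0.742 to 0.873). Mrpl17, the counterpart of bacterial L17 beside the exit tunnel, was at 8.30 FPKM in SATB1-positive and 10.3 FPKM in SATB1-negative HSCs (0.804, 0.755 to 0.857). With the GENCODE transcript lengths, Mrpl38 and Mrpl17 thus stood apart by more than counting error. For Mrpl17 that length was 7300 bases. A shorter transcript in the authors' annotation would mean fewer fragments and a wider interval. Mrps33 was at 53.4 FPKM in SATB1-positive and 63.8 FPKM in SATB1-negative HSCs (0.836, 0.739 to 0.947), and Mrps31 at 16.1 FPKM in the SATB1-positive and 18.7 FPKM in the SATB1-negative library (0.860, 0.772 to 0.959). Mrpl41 was at 8.53 FPKM in SATB1-positive and 10.3 FPKM in SATB1-negative HSCs (0.831, 0.664 to 1.04) and Mrps21 at 26.9 FPKM in the SATB1-positive and 31.6 FPKM in the SATB1-negative library (0.852, 0.687 to 1.05), both with intervals that included 1. Mrps18c, described below, is the remaining one.

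**Figure D3:**
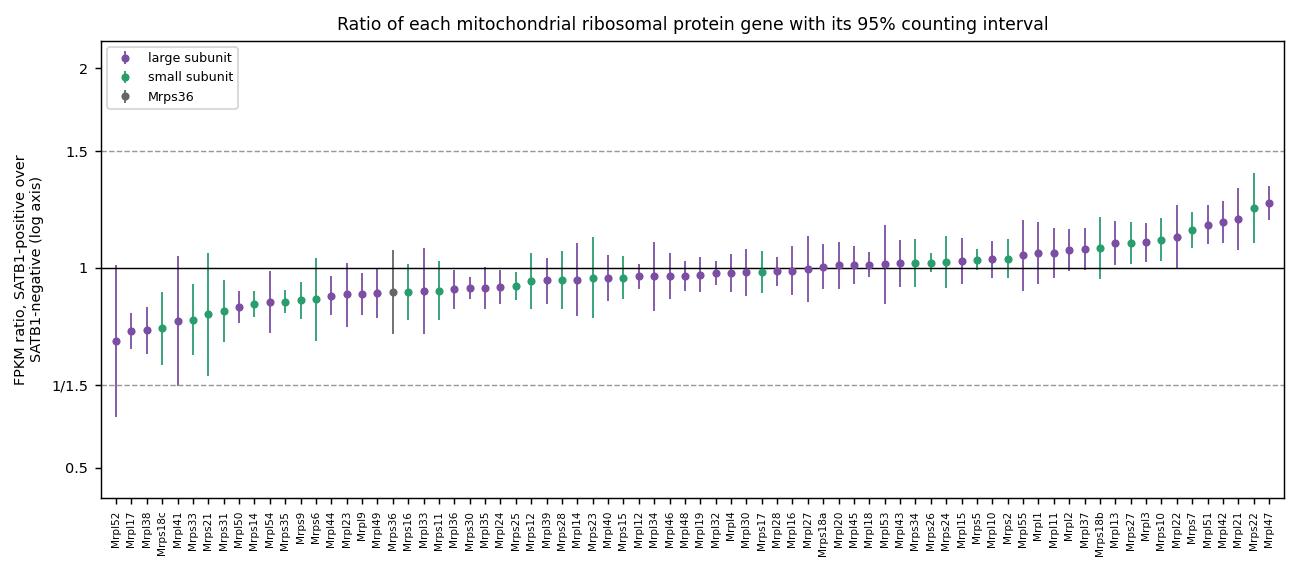
FPKM ratio of each gene, SATB1-positive over SATB1-negative (log axis), ordered from the lowest to the highest and coloured by subunit; bars are 95% counting intervals and dashed lines mark 1.5-fold. The points run from 0.775 for Mrpl52 to 1.25 for Mrpl47, and both subunits are spread along the whole order.

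The 3 genes named Mrps18 encode relatives of bacterial S18 that sit in different places of the ribosome. In the grouping by origin, Mrps18c counts as the bacterial counterpart and the other two as mitochondria-specific. Mrps18c, of the small subunit, was at 34.5 FPKM in SATB1-positive and 42.6 FPKM in SATB1-negative HSCs (0.811, 0.714 to 0.920). Mrps18b, also in the small subunit, was at 38.5 FPKM in SATB1-positive and 36.0 FPKM in SATB1-negative HSCs (1.07, 0.962 to 1.19). Of its words, 87.0% occur in other annotated transcripts, read on either strand. Mrps18a, in the large subunit, was at 64.2 FPKM in the SATB1-positive and 63.9 FPKM in the SATB1-negative library (1.005, 0.931 to 1.09), with 0% shared words. The interval of Mrps18c lay below 1 and those of the other two included 1; with 1 library each, the paralogs' difference was not tested.

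The genes were also read by the position of their proteins in the ribosome, in groups drawn up after their values were seen. In the stalk and its base, Mrpl10 was at 41.3 FPKM in SATB1-positive and 40.1 FPKM in SATB1-negative HSCs, and Mrpl11, where elongation factors dock, at 12.6 FPKM in the SATB1-positive and 11.96 FPKM in the SATB1-negative library; with Mrpl12, the group's median log2 ratio was 0.042. Around the peptidyl transferase centre, Mrpl2, Mrpl3, Mrpl16 and Mrpl27 had a median of 0.043. Mrpl3, a disease gene of the human respiratory chain, was at 48.7 FPKM in the SATB1-positive and 44.6 FPKM in the SATB1-negative library. The 7 genes of the exit tunnel held both the highest ratio of all (Mrpl47) and one of the lowest (Mrpl17), with a median of -0.023. Mrpl45, which anchors the ribosome to the inner membrane, was at 26.8 FPKM in SATB1-positive and 26.5 FPKM in SATB1-negative HSCs. The 5 genes of the central protuberance had a median of -0.040 with Mrpl38 lowest, and the 6 of the head and decoding centre a median of -0.018 with Mrps7 highest. In the platform and back of the small subunit all 5 genes (Mrps6, Mrps11, Mrps15, Mrps18c and Mrps21) were below 0, with a median of -0.15. The counting interval of 4 of these 5 includes 1; Mrps18c is the exception.

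The other 51 mitochondrial ribosomal protein genes lay between log2 ratios of -0.19 for Mrpl50 and 0.13 for Mrpl3. Across the 76 genes Spearman's rho of the log2 ratio with the mean FPKM was 0.036 and with the transcript length 0.16, as a description over genes of the same 2 libraries.

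Many mitochondrial ribosomal protein genes share sequence with pseudogenes or overlap a neighbour, so that their reads can be split or mixed by the counting. Words were searched on both strands, so a gene on the opposite strand counts as sharing, although the library kit is stranded. For 31 of the 76, at least 10% of the 50-base words of the transcript occur in transcripts of other genes. An overlapping gene shared most of these words for 19 of them and an annotated pseudogene elsewhere for 12. The shared part was 76.4% for Mrpl23, mostly with an annotated pseudogene, and 100% for Mrpl53, mostly with an overlapping gene model. It was 73.9% for Mrps25 and 52.4% for Mrps34, mostly with Nr2c2 and Mapk8ip3. These 4 genes had log2 ratios of -0.13, 0.017, -0.084 and 0.025. Over the 45 genes below 10% the median log2 ratio was -0.040, against -0.036 over all 76.

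Promoter sequences from RefSeq (GRCm38.p6, 250 bases before to 50 after each gene's start) were at hand for 67 of the 76 genes. Nuclear respiratory factor 1 (NRF1), ETS family factors such as GABP, and YY1 are known regulators of nuclear genes for mitochondrial proteins. The letters GCGCA and GCGC with any base between them (NRF1), CCGGAAG (ETS) and AAGATGGC (YY1) were searched on both strands, each independently of the others. The promoters below show the gene with the highest ratio, the gene with the lowest, and examples with an NRF1 match, with ETS and YY1 matches, and with a YY1 match; each is written 5′ to 3′ in the direction of its gene, with matches to these letters in capitals. They are Mrpl47 at chr3:32736706-32737005 (minus strand), Mrpl52 at chr14:54426659-54426958 (plus), Mrpl12 at chr11:120484387-120484686 (plus), Mrps12 at chr7:28741772-28742071 (minus) and Mrps7 at chr11:115603890-115604189 (plus). The RefSeq starts of Mrpl47, Mrps7 and Mrpl12 lie inside the gene's span in GENCODE, which begins further upstream, so part of these windows is inside the GENCODE gene.
Mrpl47: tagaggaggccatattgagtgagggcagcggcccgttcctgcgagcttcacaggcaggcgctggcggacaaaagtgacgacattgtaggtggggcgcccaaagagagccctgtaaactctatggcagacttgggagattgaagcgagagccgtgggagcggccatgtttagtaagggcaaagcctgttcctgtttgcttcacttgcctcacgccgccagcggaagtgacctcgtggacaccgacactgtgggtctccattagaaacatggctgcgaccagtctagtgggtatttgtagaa
Mrpl52: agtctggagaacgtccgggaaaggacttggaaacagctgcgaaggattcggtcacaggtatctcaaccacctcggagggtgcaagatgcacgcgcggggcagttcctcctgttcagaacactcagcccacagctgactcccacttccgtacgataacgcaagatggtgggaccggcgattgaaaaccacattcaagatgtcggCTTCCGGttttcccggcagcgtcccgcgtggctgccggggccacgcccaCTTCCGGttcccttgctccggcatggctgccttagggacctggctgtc
Mrpl12: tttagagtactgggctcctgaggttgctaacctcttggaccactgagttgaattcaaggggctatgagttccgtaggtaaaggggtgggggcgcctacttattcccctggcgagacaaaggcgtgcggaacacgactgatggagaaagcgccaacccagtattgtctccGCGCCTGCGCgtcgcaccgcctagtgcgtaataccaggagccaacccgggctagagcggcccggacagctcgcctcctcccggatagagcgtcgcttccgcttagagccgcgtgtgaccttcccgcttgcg
Mrps12: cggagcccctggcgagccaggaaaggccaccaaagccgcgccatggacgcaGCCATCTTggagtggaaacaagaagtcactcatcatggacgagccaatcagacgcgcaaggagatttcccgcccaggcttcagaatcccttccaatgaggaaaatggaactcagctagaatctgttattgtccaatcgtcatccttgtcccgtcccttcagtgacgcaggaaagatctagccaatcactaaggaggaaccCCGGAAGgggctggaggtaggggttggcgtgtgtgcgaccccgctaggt
Mrps7: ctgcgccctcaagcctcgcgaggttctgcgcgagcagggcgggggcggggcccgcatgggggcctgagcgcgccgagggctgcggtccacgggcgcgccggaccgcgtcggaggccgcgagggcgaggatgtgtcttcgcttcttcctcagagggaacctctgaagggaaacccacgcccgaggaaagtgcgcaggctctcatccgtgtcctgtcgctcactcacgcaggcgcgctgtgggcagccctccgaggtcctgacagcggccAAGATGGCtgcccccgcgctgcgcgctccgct

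The Mrpl52 window has 2 ETS matches, 1 before and 1 after the RefSeq start, and the Mrpl47 window has none of the 3 letter patterns. The Mrpl12 window holds 1 NRF1 match, before the RefSeq start. The Mrps12 window holds 1 ETS match after the RefSeq start and 1 YY1 match before it. That YY1 match lies further upstream than the start of Sars2, a neighbour on the other strand. The Mrps7 window holds 1 YY1 match after the RefSeq start. Over the 67 windows, NRF1 letters were found in 17.9%, against 13.1% of 6755 windows of genes at 5 FPKM or above and 5.19% of all 27025. ETS letters were in 35.8%, against 22.8% of genes at 5 FPKM or above and 9.93% of all, and YY1 letters in 17.9%, against 6.0% and 3.19%. The longer ETS letters CCGGAAGTG, counted as a GABP site, were in 5.97% of the 67 windows and 5.6% of windows of genes at 5 FPKM or above. For the longer ETS letters ACTTCCGG these shares were 17.9% and 10.4%. Promoters of cytosolic ribosomal protein genes (57 windows) held the NRF1 letters in 8.77%, the ETS letters in 40.4% and the YY1 letters in 10.5%. The E-box CACGTG, bound by MYC and MAX, was in 7.46% of the 67 windows, against 12.7% of windows of genes with at least 5 FPKM. For the CRE TGACGTCA the shares were 2.99% and 3.8%, for CCAAT 40.3% and 43.7%, for the GC box GGGCGG 49.3% and 70.5%, and for TATAAA 7.46% and 8.29%. These matches are letters in a window and do not show binding. In all, 14 patterns were counted, of which a longer form of the YY1 site, ZNF143, STAF and CTTCC are not described.

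**Figure D4:**
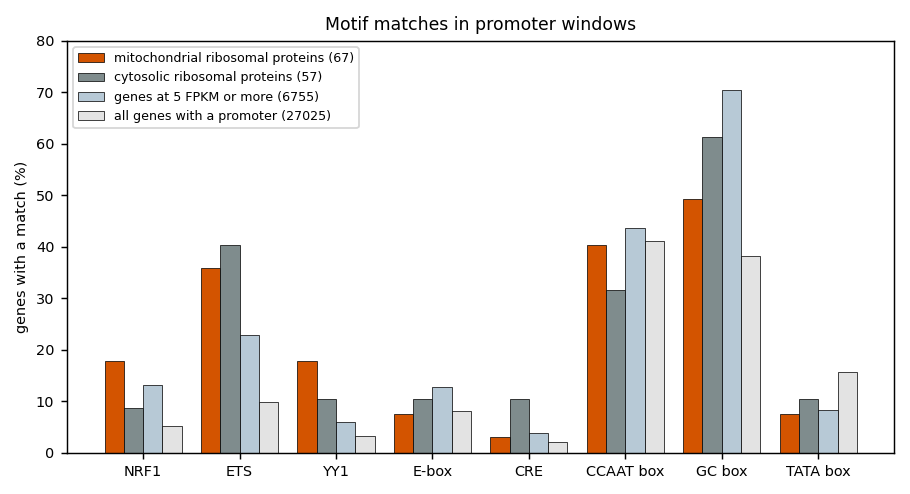
Share of promoter windows with at least 1 match to each motif on either strand, for mitochondrial ribosomal protein genes, cytosolic ribosomal protein genes, genes with at least 5 FPKM and all genes. Bars start at 0; YY1 letters stand at 17.9% in mitochondrial ribosomal protein genes and 6.0% in genes with at least 5 FPKM.

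Ratios were compared by motif as medians, with no test. The 12 genes with NRF1 letters had a median log2 ratio of -0.058 and the 55 without -0.015. The 24 with ETS letters had 0.0015 and the 43 without -0.042, and the 12 with YY1 letters -0.0092 and the 55 without -0.040. Among the regulators themselves, Nrf1 was at 35.0 FPKM in SATB1-positive and 32.2 FPKM in SATB1-negative HSCs, Gabpa at 33.4 FPKM in SATB1-positive and 31.7 FPKM in SATB1-negative HSCs, and Yy1 at 24.0 FPKM in the SATB1-positive and 24.1 FPKM in the SATB1-negative library. The coactivator gene Ppargc1a was at 0.831 FPKM in SATB1-positive and 0.584 FPKM in SATB1-negative HSCs. Of the 9 measured regulators of mitochondrial biogenesis, 0 passed the 2-fold rule as higher and 1, Mycn, as lower. Over the 9308 genes these shares were 1.31% and 0.688%. Mycn was at 41.5 FPKM in SATB1-positive and 86.6 FPKM in SATB1-negative HSCs (ratio 0.480, 0.459 to 0.501). The log2 ratio of Mycn was -1.04; adding 5 FPKM in place of 1 gave -0.98, short of the rule. Myc, the most abundant, was at 139 FPKM in the SATB1-positive and 138 FPKM in the SATB1-negative library, and Esrra, with the highest ratio, at 6.17 FPKM in SATB1-positive and 4.97 FPKM in SATB1-negative HSCs.

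Some of the genes start back to back with a neighbour. For 17 of the 76 genes, 22.4%, a protein-coding gene on the other strand started within 1000 bases upstream, against 11.4% of 8243 protein-coding genes with at least 5 FPKM. Mrps12 starts 172 bases from Sars2, the gene of the mitochondrial seryl-tRNA synthetase, which was at 11.3 FPKM in SATB1-positive and 10.6 FPKM in SATB1-negative HSCs. Mrps27, a protein with pentatricopeptide repeats, starts 81 bases from Ptcd2, which encodes another protein of that class, at 48.2 FPKM in the SATB1-positive and 49.6 FPKM in the SATB1-negative library. Mrps11 and Mrpl46 overlap at their 5′ ends on chromosome 7 and had log2 ratios of -0.11 and -0.040.

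The other genes needed for mitochondrial translation were likewise within 2-fold. The 7 mitoribosomal proteins that carry other names (Dap3, Chchd1, Aurkaip1, Ptcd3, Ict1, Gadd45gip1 and Mrp63) had a median log2 ratio of -0.0011, with 3 above 0. Chchd1, the most abundant and lowest in ratio, was at 46.2 FPKM in SATB1-positive and 54.8 FPKM in SATB1-negative HSCs, and Ptcd3, the highest in ratio, at 51.8 FPKM in SATB1-positive and 48.2 FPKM in SATB1-negative HSCs. Of 28 genes for assembly of the mitoribosome and modification of its RNA, 11 had a ratio above 0 and the median was -0.082, or -0.027 over those with a mean of at least 10 FPKM. The ribosome-binding factor gene Rbfa, the most abundant, was at 89.4 FPKM in the SATB1-positive and 80.2 FPKM in the SATB1-negative library. The ribosomal RNA methyltransferase gene Mrm1 had the lowest ratio, at 12.4 FPKM in the SATB1-positive and 17.1 FPKM in the SATB1-negative library (0.728, 0.665 to 0.797), and Eral1, a GTPase that chaperones the small subunit's RNA, the highest, at 27.0 FPKM in SATB1-positive and 21.8 FPKM in SATB1-negative HSCs (1.24, 1.15 to 1.34).

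Mitochondrial translation factors had 6 of 15 genes above 0 and a median log2 ratio of -0.049, or -0.027 over those with a mean of at least 10 FPKM. Gfm2, a GTPase of ribosome recycling, had the highest ratio, at 12.6 FPKM in SATB1-positive and 9.88 FPKM in SATB1-negative HSCs (1.28, 1.17 to 1.40), and Taco1, a translational activator of cytochrome oxidase, the lowest, at 6.47 FPKM in the SATB1-positive and 7.67 FPKM in the SATB1-negative library (0.844, 0.706 to 1.01). Tmem70, grouped here but known for ATP synthase assembly, was the most abundant, at 47.6 FPKM in SATB1-positive and 53.0 FPKM in SATB1-negative HSCs. Mitochondrial aminoacyl-tRNA synthetase and amidotransferase genes lay on the other side, with 14 of 21 above 0 and a median of 0.067. Qrsl1, a subunit of the amidotransferase that makes glutaminyl-tRNA, had the highest ratio, at 10.8 FPKM in the SATB1-positive and 7.199 FPKM in the SATB1-negative library (1.498, 1.32 to 1.70). Pars2 had the lowest, at 3.68 FPKM in the SATB1-positive and 4.99 FPKM in the SATB1-negative library (0.738, 0.616 to 0.883). Lars2, the leucyl-tRNA synthetase, stood far above the others at 758 FPKM in SATB1-positive and 592 FPKM in SATB1-negative HSCs. Of the words of the Lars2 transcript, 0.078% occur in other annotated transcripts, read on either strand. Sequence outside annotated transcripts was not searched. Whether all of the Lars2 value comes from its messenger RNA was therefore not tested, and its ratio carries the same limit. Gars, whose enzyme also serves the cytosol, was at 95.2 FPKM in the SATB1-positive and 98.1 FPKM in the SATB1-negative library. Genes for expression of mitochondrial DNA had a median of -0.011 with 7 of 15 above 0, or -0.00021 with that filter; Hsd17b10, the most abundant and a subunit of mitochondrial RNase P, had the lowest ratio, at 89.3 FPKM in SATB1-positive and 114 FPKM in SATB1-negative HSCs (0.785, 0.740 to 0.832), and the RNA-degrading Pnpt1 the highest, at 51.3 FPKM in the SATB1-positive and 42.2 FPKM in the SATB1-negative library (1.22, 1.16 to 1.27). None of the measured genes of these 5 lists passed the 2-fold rule, against 1.31% as higher and 0.688% as lower over the 9308 genes. None of the 15 listed genes of mitochondrial DNA itself was found among the genes used, so they could not be analysed here.

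Nuclear genes of oxidative phosphorylation lay close to the mitochondrial ribosomal protein genes. The median log2 ratio of their 75 measured genes was -0.036, with 30 above 0 and an interquartile range of -0.14 to 0.048. Of the 75, 0 passed the 2-fold rule, against 1.31% as higher and 0.688% as lower over the 9308 genes. Atp5b, the most abundant, was at 672 FPKM in SATB1-positive and 583 FPKM in SATB1-negative HSCs, and Ndufs5 was listed at 1.58 FPKM in the SATB1-positive library and at 0 in the SATB1-negative library. Atp5e, with the lowest ratio, was at 30.8 FPKM in SATB1-positive and 43.8 FPKM in SATB1-negative HSCs. Their summed FPKM made up 1.64% of all FPKM in the SATB1-positive and 1.65% in the SATB1-negative library. Cytosolic ribosomal protein genes (79 measured) were further below 0, with a median of -0.16, an interquartile range of -0.27 to 0.012 and 21 above 0. They took 10.1% of the summed FPKM in SATB1-positive and 11.2% in SATB1-negative HSCs. Rpl13, the most abundant, was at 2465 FPKM in the SATB1-positive and 3252 FPKM in the SATB1-negative library. Rps27, the lowest in ratio, was at 1.88 FPKM in the SATB1-positive and 38.2 FPKM in the SATB1-negative library (ratio 0.049, 0.019 to 0.10). It was the 1 gene of the list past the 2-fold rule, as lower, against 0.688% of the 9308 genes. Its SATB1-positive value was close to the limit of 1 FPKM for a measured gene, while the median of the list there was 463 FPKM. Differences between these lists have no test in this design.

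**Figure D5:**
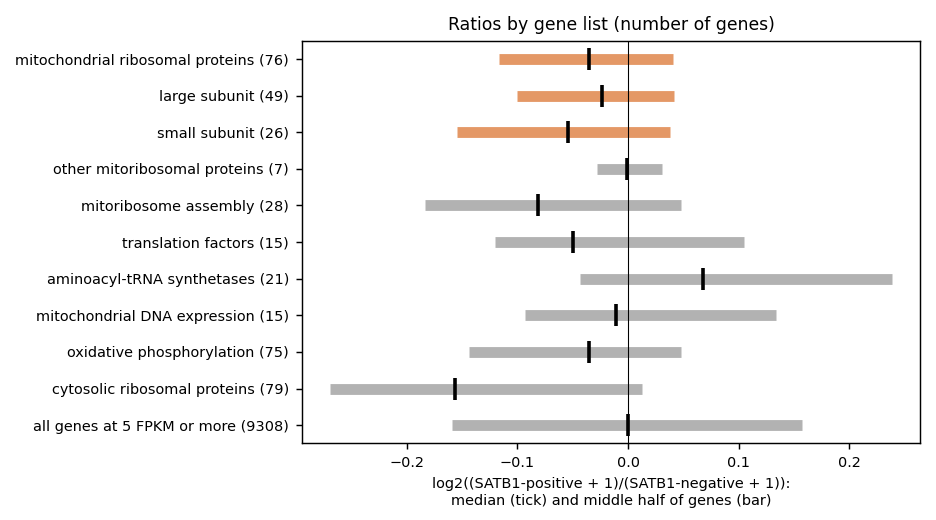
Log2 ratio of FPKM + 1, SATB1-positive over SATB1-negative, by gene list: ticks are medians, bars are interquartile ranges over genes, and the number of measured genes is in parentheses. The mitochondrial ribosomal proteins (median -0.036) lie beside oxidative phosphorylation (-0.036), and cytosolic ribosomal proteins lie lower (-0.16).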

How the data were processed

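RNA of 2 sorted mouse HSC fractions, 1 library each, was extracted with a miRNeasy kit and made into libraries with the Clontech SMARTer Stranded kit, per the labels' protocols. Each deposited file lists FPKM by gene, per the file headers. Cufflinks 2.2.1, TopHat2 2.0.13, SAMtools 0.1.19, Bowtie2 2.2.3 and the mm10 build appear in the submitters' processing notes; settings, annotation and strand handling are not given there. Cufflinks assigns fragments by a model, so overlapping or similar genes can gain or lose fragments in 1 library.

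Of 23235 rows, 25 whose symbol had become a spreadsheet date (0.172% of summed FPKM in the SATB1-positive and 0.161% in the SATB1-negative library) were left out. All 76 symbols matched a single gene in GENCODE M21 (mm10), the source of coordinates and of the shortest RefSeq-linked transcript used for fragment estimates. Depths came from genes with a single transcript: the chosen depth and a 200-base offset made 69.2% of 814 values in the SATB1-positive and 69.0% of 770 in the SATB1-negative library whole within 0.05 fragments. This search picks the best share, so 10% for a random depth is not its chance level. The rule of size was a 2-fold ratio of FPKM + 1 where the higher value was 5 FPKM or above; list genes needed 1 FPKM in 1 library to be measured. Named genes were the 8 highest and 8 lowest ratios, the 5 most abundant per subunit and the Mrps18 group, with the most abundant, highest and lowest gene of each list (1 of these is not reported here); other named genes and the 1.2-fold limit were picked with values in view. The genes and lists were chosen with earlier results of these data known. The depth search and the 2-fold rule were tested on simulated data. Both tests drew Poisson counts at the fitted depths and with the GENCODE lengths. The test of the rule planted 4-fold changes in genes with a mean of at least 10 FPKM. Neither test covered 2-fold changes, spread beyond counting error or other transcript lengths. Alternatives were other pseudocounts, scalings and filters. Python 3.11.15, pandas 2.3.3, NumPy 2.4.6 and SciPy 1.17.1 were used.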

Additional observations from a re-analysis of the deposited data

How the results depend on the processing

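No paired analysis was possible because each group has 1 library, so neither replicate blocks nor leaving out a replicate applied. The alternatives were pseudocounts of 0.1 and 5 FPKM, rescaling (upper quartile, equal sums as TPM, or median ratio), a 4-fold rule, and changes to the filter on low values. The median log2 ratio of the mitochondrial ribosomal protein genes ran from -0.041 to -0.029, and their interquartile range was 0.14 to 0.16 wide. The number past 2-fold or 1.5-fold was 0 under each of these settings that applied to it, the number above 0 was 30, and the number within 1.2-fold was 68 to 69. The median of the other mitoribosomal proteins lay on either side of 0, from -0.0064 to 0.0018. Asking for a mean of at least 10 FPKM moved the median of the assembly genes to -0.027, of the translation factors to -0.027, of the genes for expression of mitochondrial DNA to -0.00021 and of the biogenesis regulators to 0.0061. The median over all measured genes shifted by less than 0.1 in each scaling. Of 25 named genes of the set, 0 changed sign. Mycn (-0.98) and Satb1 (0.85) were under the 2-fold rule with a pseudocount of 5. Chosen after seeing the data, the longest transcript gave 10 genes with a counting interval above 1 and 18 below it. For most genes it has the same length as the shortest, and a longer transcript only adds fragments. This setting therefore could not show whether the intervals would widen. Depth limits Mrpl52 most, and no difference between animals or sorts can be assessed.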

Other observations

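Of the 17 divergent neighbours of mitochondrial ribosomal protein genes, 14 reached 5 FPKM in 1 or both libraries, with a median log2 ratio of -0.022. Of these, 0 passed the 2-fold rule, against 1.31% as higher and 0.688% as lower over the 9308 genes. The neighbours were not tested against the mitochondrial ribosomal protein genes. The lowest was Klc4, upstream of Mrpl2, at 8.30 FPKM in SATB1-positive and 10.8 FPKM in SATB1-negative HSCs (log2 ratio -0.34). The highest was Ncapd2, a condensin gene upstream of Mrpl51, at 70.7 FPKM in the SATB1-positive and 54.1 FPKM in the SATB1-negative library (0.38), while Mrpl51 itself was at 0.20. Psma2, a proteasome subunit gene 75 bases from Mrpl32, was at 156 FPKM in SATB1-positive and 135 FPKM in SATB1-negative HSCs. Fau, which encodes a ubiquitin-like protein fused to a cytosolic ribosomal protein, starts 59 bases from Mrpl49 and was at 278 FPKM in SATB1-positive and 290.2 FPKM in SATB1-negative HSCs. These genes were chosen after their values were seen.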
